A study of Mus musculus with 2 samples.

Results

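The receptor tyrosine kinases described here are 9 receptors used as markers of mesenchymal or epithelial cells, namely Pdgfra, Pdgfrb, Ddr2, Axl, Met, Egfr, Erbb2, Erbb3 and Kit. They were chosen by name, and every probe set annotated to 1 of these genes alone was taken, which gave 23 probe sets for the 9 genes among 18193 genes with such a probe set. RNA was measured in 2 cultures of mouse embryonic stem cells, the pluripotent cells of the early embryo, with 1 Affymetrix array each. One culture was labelled Mof null (genotype MOF-/-) and the other wild type (genotype MOF +/+). Mof, gene symbol Kat8, is an acetyltransferase of histone H4. Both lines were of strain C57BL/6, were derived from embryos at 3.5 days of gestation and were at passage 15 to 18. Both had been kept with LIF on embryonic fibroblast feeders, which were then removed over 2 passages on bare plates. How the allele was made, and whether each line was 1 clone, was not stated in the labels used here.

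A receptor tyrosine kinase spans the cell membrane. Ligand binding outside the cell brings receptors together, and the kinases inside then phosphorylate each other and recruit adaptors that switch on the Ras-ERK and PI3K-Akt pathways. Fibroblasts and other mesenchymal cells are known for the PDGF receptors and Ddr2, epithelia for Erbb2, Erbb3 and Met, and germ cells, melanocytes and mast cells for Kit. Pdgfra also marks the primitive endoderm, a lineage that embryonic stem cell cultures can form.

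Values are RMA values on a log2 scale, and a difference is always Mof null minus wild type. A gene takes its brightest probe set, and it counts as expressed when the higher of its 2 values reaches 6.02, the median of all values. With 1 array per genotype there is no replicate error, no test and no p-value, and counts use a fixed size, a difference of 1 or more in either direction (2-fold). The one spread that could be measured is that between probe sets of the same gene, with a pooled SD of 0.33 over 5362 genes, which holds no variation between cultures. Values spanned 2.85 to 14.67 (median 6.01) on the array labelled Mof null and 2.77 to 14.65 (median 6.02) on the array labelled wild type. Kat8 itself, read by 1 probe set, had a value of 8.37 on the array labelled Mof null and 8.06 on the array labelled wild type, a difference of 0.31. It is not known whether that probe set lies in the deleted part, so it checks no label, and every direction below rests on the labels.

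Promoter windows from RefSeq (GRCm38.p6) were matched for 7 of the 9 receptors, all but Pdgfrb and Erbb3. The windows of Egfr, Erbb2 and Kit are shown because their annotated start is the first base of the gene and because these receptors stand for the outcomes met below, with Egfr lower, Kit higher and Erbb2 under 2-fold. Each is the 250 bases before the start on the plus strand, Egfr at chr11:16751953-16752202, Erbb2 at chr11:98412234-98412483 and Kit at chr5:75574737-75574986. Capitals mark GGGCGG or its reverse complement CCGCCC, the GC box that Sp family factors bind.
Egfr: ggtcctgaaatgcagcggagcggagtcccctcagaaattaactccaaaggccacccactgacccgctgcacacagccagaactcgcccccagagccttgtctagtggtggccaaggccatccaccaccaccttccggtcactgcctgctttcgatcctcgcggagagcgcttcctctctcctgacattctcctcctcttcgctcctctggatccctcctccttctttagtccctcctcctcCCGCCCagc
Erbb2: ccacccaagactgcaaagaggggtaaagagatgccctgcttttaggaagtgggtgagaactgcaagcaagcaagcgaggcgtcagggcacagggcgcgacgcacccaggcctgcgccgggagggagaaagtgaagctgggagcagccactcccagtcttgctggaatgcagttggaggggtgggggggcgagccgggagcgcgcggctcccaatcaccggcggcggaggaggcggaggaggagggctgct
Kit: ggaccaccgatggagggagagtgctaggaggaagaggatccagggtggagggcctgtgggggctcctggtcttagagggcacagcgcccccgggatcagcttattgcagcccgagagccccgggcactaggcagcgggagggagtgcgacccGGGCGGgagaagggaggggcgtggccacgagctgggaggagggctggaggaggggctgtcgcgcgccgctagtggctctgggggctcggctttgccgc
A GC box stood once in the Egfr window and once in the Kit window, and none in that of Erbb2, and 32.7% of all 32851 RefSeq promoter windows of the same length held at least 1 on either strand. The windows were 60.8% (Egfr), 66.0% (Erbb2) and 70.8% (Kit) G or C, against a median of 52.4% over all windows. They held 11, 16 and 17 CpG dinucleotides in the same order, against a median of 6. None of these 3 held TATAAA or its reverse complement TTTATA, the letters of a TATA box, which 12.4% of all windows held, and none held CACCTG or CAGGTG, the E-box of Snail and Zeb factors, which 17.2% held. Egfr and Kit, which differed in opposite directions, both held the GC box. Of all 8 windows matched for the 7 receptors, 5 held it. Windows not shown, whose start is not the first base of the gene, varied more. That of Met was 74.0% G or C with 24 CpG dinucleotides. The Ddr2 window was 37.6% G or C with 1 CpG dinucleotide, and it held a TATA box.

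Most receptors known from mesenchyme were lower on the array labelled Mof null, as were Egfr and Met, and Kit was higher. All 9 genes were above the level filter on both arrays. By their brightest probe sets 5 receptors were lower by 2-fold or more, namely Axl, Pdgfrb, Ddr2, Egfr and Met, 1 was higher by 2-fold or more, Kit, and Pdgfra, Erbb2 and Erbb3 were under 2-fold. Of all 12015 expressed genes, 11.9% were lower by 2-fold or more and 5.09% higher by 2-fold or more. The median difference of the 9 receptors was -1.77, while that of all expressed genes was 0.10. Taken relative to the median of 25 pluripotency genes, a scaling that lowers every difference by 0.60, Kit was under 2-fold and Erbb2 was below 0. In bulk RNA, fewer cells of a type and less RNA per cell cannot be told apart.

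**Figure D1:**
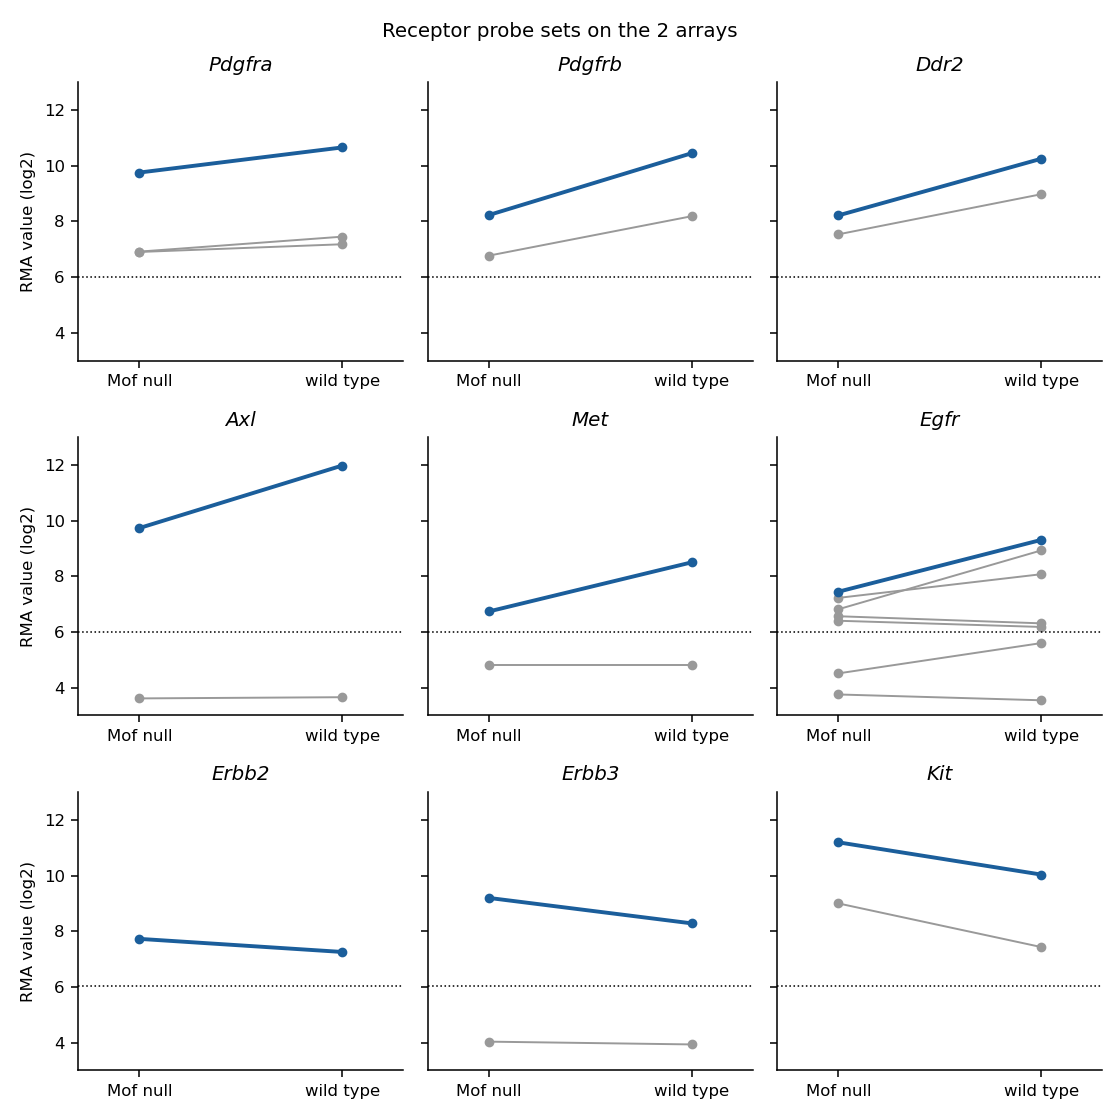
RMA values (log2, vertical axis) of all 23 probe sets of the 9 receptors on the array labelled Mof null (left) and the array labelled wild type (right), with 1 line per probe set, the brightest of each gene in blue and the others in grey. The dotted line is the level filter of 6.02. The blue lines of Pdgfra, Pdgfrb, Ddr2, Axl, Met and Egfr lie lower at the Mof null end, and those of Erbb2, Erbb3 and Kit lie higher there as deposited, while Erbb2 turns to -0.13 relative to the pluripotency median.

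Over probe sets the picture was less even than over genes. Of the 23 probe sets 18 passed the level filter, 8 of them lower by 2-fold or more, 2 higher by 2-fold or more and 8 under 2-fold. Among all 20935 expressed probe sets that name 1 gene, 11.1% were lower by 2-fold or more and 4.49% higher by 2-fold or more. The median difference of the 18 was -0.88, against 0.095 for all expressed probe sets. Among the 5 receptors with several expressed probe sets the pooled SD of the differences was 0.80, against 0.33 over all such genes.

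The PDGF receptors bind platelet-derived growth factors and drive growth and migration of mesenchymal cells. Pdgfrb (Entrez gene 18596), found on fibroblasts and pericytes, had 8.23 on the array labelled Mof null and 10.45 on the array labelled wild type on its brightest probe set, 4.67-fold lower. Its second probe set had 6.77 and 8.19 in the same order, 2.67-fold lower, so both probe sets were past 2-fold. Pdgfra (Entrez gene 18595), which serves mesenchyme and primitive endoderm, had 9.76 on the array labelled Mof null and 10.66 on the array labelled wild type, a difference of -0.90 or 1.87-fold. The other Pdgfra probe sets differed by -0.54 and -0.28, and no probe set of Pdgfra was past 2-fold while both of Pdgfrb were. One of these, 1421916_at, was designed from the same source sequence as the brightest. Under centring on the median expressed gene Pdgfra was -1.01 and under correction of the trend with level -1.05, just past 2-fold, and relative to the pluripotency median it was -1.50. Of the expressed genes 13.2% had a lower difference than Pdgfra, and 2.11% a lower one than Pdgfrb.

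Ddr2 (Entrez gene 18214) is a receptor for fibrillar collagen, carried by fibroblasts and other connective tissue cells. Its brightest probe set had 8.22 on the array labelled Mof null and 10.25 on the array labelled wild type, 4.11-fold lower. The second probe set had 7.54 and 8.98 in the same order, 2.72-fold lower. Both probe sets of Ddr2 were therefore past 2-fold in the same direction.

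Axl (Entrez gene 26362), a receptor of the TAM family that binds Gas6 and is known from mesenchymal and myeloid cells, had the lowest difference of the 9 on the brightest probe set, just below that of Pdgfrb. It had 9.74 on the array labelled Mof null and 11.98 on the array labelled wild type, a difference of -2.25 or 4.75-fold, and 2.02% of expressed genes had a lower one. A second Axl probe set, 1438621_x_at, had 3.61 and 3.66 in the same order and was far below the level filter on both arrays. The Axl value therefore rests on 1 probe set. Averaged over both probe sets the difference was -1.15, above those of Pdgfrb (-1.82) and Ddr2 (-1.74) averaged the same way.

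Met (Entrez gene 17295) is the receptor of hepatocyte growth factor, by which mesenchymal cells signal to epithelia. It had 6.74 on the array labelled Mof null and 8.51 on the array labelled wild type, 3.41-fold lower. Its other probe set, 1422990_at, had 4.81 on both arrays, below the filter, a tie that 36 expressed genes also showed on their brightest probe set. Averaged over both probe sets, Met was at -0.88, under 2-fold. Met thus went with Axl, Pdgfrb and Ddr2 by its brightest probe set, not with Erbb2 and Erbb3.

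Members of the EGF receptor family differed in sign. Egfr (Entrez gene 13649), the receptor of EGF and of epiregulin, had 7.45 on the array labelled Mof null and 9.31 on the array labelled wild type, 3.64-fold lower. Erbb3 (Entrez gene 13867), which binds neuregulins, has little kinase activity of its own and signals through a partner, had 9.20 on the array labelled Mof null and 8.28 on the array labelled wild type, 1.89-fold higher. Erbb2 (Entrez gene 13866), the partner that binds no ligand, had 7.73 on the array labelled Mof null and 7.26 on the array labelled wild type, 1.39-fold higher. Neither Erbb2 nor Erbb3 was past 2-fold, and relative to the pluripotency median they stood at -0.13 and 0.32. Erbb4, the remaining member of the family, was below the filter on both arrays at 3.49 (Mof null) and 3.70 (wild type).

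Egfr was read by 7 probe sets, and these disagreed. Besides the brightest, 1424932_at had 6.82 on the array labelled Mof null and 8.93 on the array labelled wild type, a difference of -2.12. Another, 1460420_a_at, had 7.23 and 8.08 in the same order, a difference of -0.85. By contrast 1432647_at and 1454313_at, which share a source sequence, differed by 0.26 and 0.22. They lay near the level filter, with 6.57 and 6.40 on the array labelled Mof null and 6.31 and 6.18 on the array labelled wild type. The last 2 were below the filter, with differences of -1.09 for 1451530_at and 0.21 for 1457563_at. Those past 2-fold were the 2 brightest on the array labelled wild type and the dim 1451530_at, and the mean over all 7 was -0.75. Of those past 2-fold, 1424932_at and 1451530_at each also share a source sequence with another probe set. Relative to the pluripotency median Egfr was -2.46 and 1432647_at and 1454313_at were below 0.

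Kit (Entrez gene 16590) is the receptor of stem cell factor and is known from germ cells, blood progenitors, melanocytes and mast cells. Its brightest probe set had 11.20 on the array labelled Mof null and 10.04 on the array labelled wild type, 2.24-fold higher. The second had 9.00 and 7.43 in the same order, 2.97-fold higher. Both probe sets were past 2-fold, and 3.13% of expressed genes had a higher difference than Kit. Relative to the pluripotency median the difference was 0.56, under 2-fold.

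**Figure D2:**
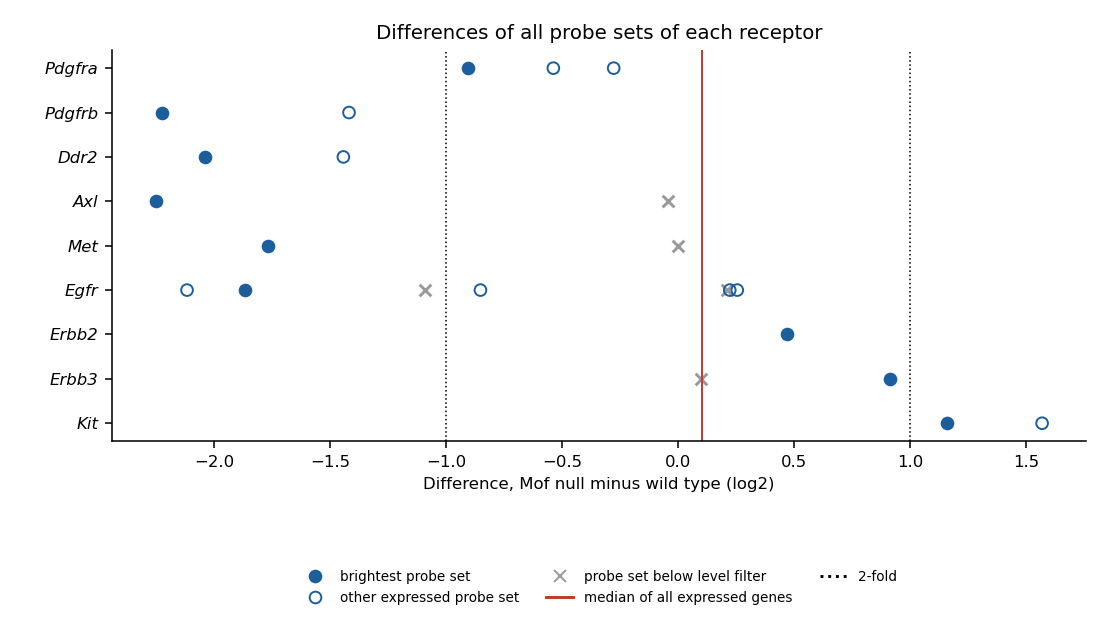
Difference between the array labelled Mof null and the array labelled wild type (log2, horizontal axis) for each probe set of each receptor. Filled points are the brightest probe set, open points other expressed probe sets, crosses probe sets below the level filter, the red line is the median of all expressed genes (0.10) and dotted lines mark 2-fold. Pdgfrb, Ddr2 and Kit keep to one side of 2-fold on all their probe sets, whereas those of Egfr run from -2.12 to 0.26 among the expressed ones. Lowering every difference by 0.60 brings Kit's brightest probe set under 2-fold and Erbb2 below 0.

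Several receptors lie beside other receptor genes on their chromosomes, and neighbours did not always move alike. In RefSeq, Kit lies between Pdgfra and Kdr, a VEGF receptor gene, on chromosome 5, with differences of 1.16 for Kit, -0.90 for Pdgfra and -0.29 for Kdr. Pdgfrb lies beside Csf1r, the receptor of macrophage colony-stimulating factor, on chromosome 18. Csf1r had 7.65 on the array labelled Mof null and 9.81 on the array labelled wild type, a difference of -2.15, close to the -2.22 of Pdgfrb. On chromosome 6 Met lies between Cav1, a gene of caveolae, at -2.32, and Capza2, at -0.20.

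The ligands of these receptors were mostly lower on the array labelled Mof null. Of 19 growth factors and other protein ligands listed for the 9 receptors and their families, 18 were measured and 9 were expressed. Of these 9, 6 were lower by 2-fold or more and none higher by 2-fold or more, against 11.9% and 5.09% of all expressed genes, and their median difference was -1.53, against 0.10. Of these ligands Pdgfd passed the level filter through the wild type value alone. Over all 18 measured ligands the median was -0.63, and for the ligands of the EGF receptor family alone it was -0.88 over 3 expressed and 0.052 over all 10 measured.

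The ligand of Egfr and Erbb4 called epiregulin, Ereg, had 6.98 on the array labelled Mof null and 10.14 on the array labelled wild type, 8.94-fold lower. Pdgfd, a ligand of Pdgfrb, had 5.18 on the array labelled Mof null and 7.83 on the array labelled wild type, 6.25-fold lower, with the Mof null value below the filter. Pdgfc, a ligand of Pdgfra, had 8.40 and 10.22 in the same order, 3.53-fold lower. All PDGF genes that were expressed were thus past 2-fold, since Pdgfa, the other Pdgfra ligand, had 9.05 on the array labelled Mof null and 10.08 on the array labelled wild type, 2.04-fold lower. A second probe set of Pdgfa differed by -0.72.

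Kitl, the stem cell factor that binds Kit, had 7.96 on the array labelled Mof null and 10.16 on the array labelled wild type, 4.60-fold lower, and its 3 expressed probe sets lay between -2.20 and -1.15. Kit and Kitl therefore differed in opposite directions as deposited and also relative to the pluripotency median. The Axl ligand Gas6 had 9.26 on the array labelled Mof null and 10.79 on the array labelled wild type, 2.88-fold lower. Pros1, which binds receptors of the TAM family, differed by -0.84, and Hbegf, another Egfr ligand, by -0.88. Nrg2, a neuregulin, differed by 0.20, which is below 0 relative to the pluripotency median. Hgf, the Met ligand, was below the filter on both arrays, at 5.22 (Mof null) and 5.57 (wild type).

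Most listed collagens, the ligands of Ddr2, were lower, as Ddr2 was. Those lower by 2-fold or more are counted again among the fibroblast markers below, so the lists are not separate observations. Of 6 listed collagen genes 5 were expressed and 4 of these were lower by 2-fold or more, against 11.9% of all expressed genes. Col1a1 was 7.57-fold lower and Col5a1 4.20-fold lower, and Col3a1 and Col1a2 differed by -1.23 and -1.20 on their brightest probe sets. Other expressed probe sets reached -2.36 for Col3a1 and -2.65 for Col1a2, and another of Col1a1 was at -1.77. The median of the list was -1.23, or -1.82 when probe sets were averaged. The remaining one, Col2a1, a collagen of cartilage, differed by 0.48, which is below 0 relative to the pluripotency median.

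**Figure D3:**
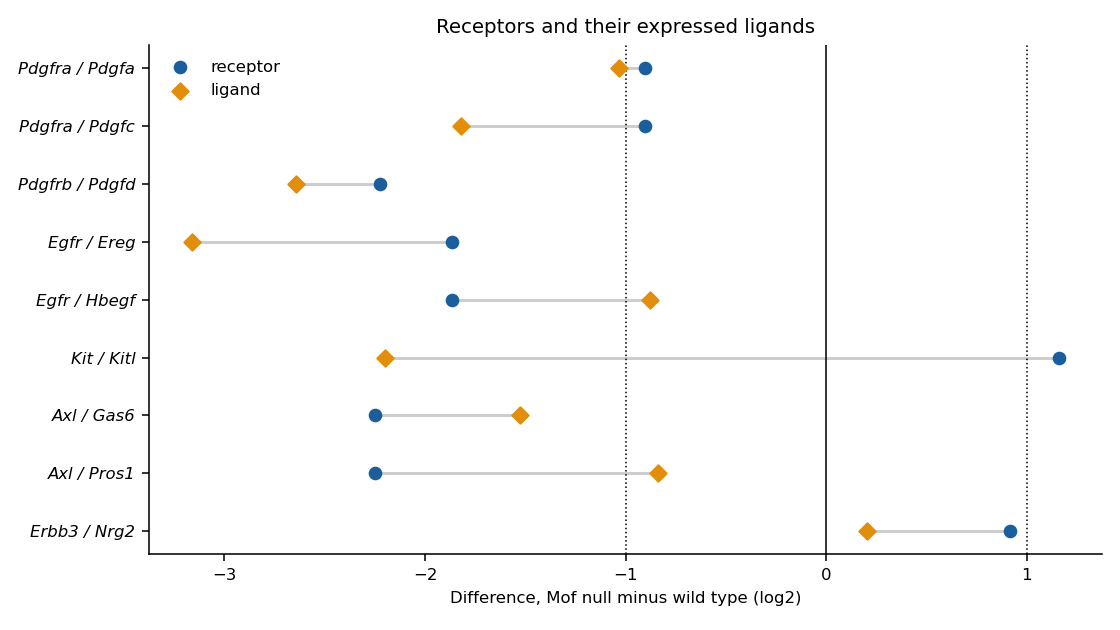
Difference between the array labelled Mof null and the array labelled wild type (log2, horizontal axis) for receptors (blue circles) and their expressed ligands (orange diamonds), with 1 row per pair and dotted lines at 2-fold. In 7 of the 9 pairs both points are below 0, but Pdgfra, Egfr and Axl each recur among these, so the pairs are not independent. Pros1 is set beside Axl as a ligand of the TAM family, not as a ligand of Axl itself. Kit is at 1.16 with Kitl at -2.20, and Erbb3 is at 0.92 with Nrg2 at 0.20, which is below 0 relative to the pluripotency median.

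Other receptor tyrosine kinases went both ways. Of 47 measured, 29 were expressed, 5 of them lower by 2-fold or more and 3 higher by 2-fold or more, with a median difference of 0.088, which is below 0 after centring on the median gene and relative to the pluripotency median. These shares, 17.2% and 10.3%, stand beside 11.9% and 5.09% of all expressed genes. With the level filter at percentile 75, the median of the relatives of the 9 receptors was -0.85 (0.23 at the usual filter), and that of the FGF, insulin and VEGF receptors was -1.06 (-0.097 at the usual filter). Epha3, an ephrin receptor of mesenchyme, had 5.96 on the array labelled Mof null and 9.13 on the array labelled wild type, 9.01-fold lower, the Mof null value being below the filter. Csf1r was 4.44-fold lower, Styk1 4.23-fold, again with the Mof null value below the filter, the VEGF receptor gene Flt1 2.31-fold and Fgfr1, an FGF receptor, 2.09-fold. Those higher by 2-fold or more were Tyro3, which like Axl belongs to the TAM family, at 2.28-fold, Fgfr4 at 2.20-fold, with a wild type value of 5.57 below the filter, and Fgfr3 at 2.18-fold, and relative to the pluripotency median each was under 2-fold.

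Within families, signs thus differed again. In the TAM family Axl was at -2.25, Mertk at 0.23 and Tyro3 at 1.19, and Mertk was below 0 relative to the pluripotency median. Of the collagen receptors Ddr2 was at -2.04 and Ddr1, which epithelia are known to carry, at -0.85, with Ddr1 probe sets running from -0.85 to 0.27. Mst1r, the relative of Met, was below the filter on both arrays.

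Among genes that act downstream of the receptors, few differed by 2-fold. Of 24 expressed adaptors and effectors 3 were lower by 2-fold or more and none higher by 2-fold or more, a share of 12.5% beside 11.9% of all expressed genes. These were Gab2, an adaptor, at 2.88-fold, the kinase gene Akt1 at 2.64-fold and Pik3r1, a regulatory subunit of PI3K, at 2.61-fold. Other expressed probe sets went up to 0.25 for Gab2, to 0 for Akt1 and to -0.26 for Pik3r1.

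Of 18 genes whose products attenuate receptors 4 were lower by 2-fold or more and none higher by that much, 22.2% beside 11.9% of all expressed genes, with a median of -0.18. They were Sh3kbp1, an adaptor of receptor uptake, at 4.22-fold, the EGF receptor inhibitors Lrig1 at 3.83-fold and Errfi1 at 3.29-fold, and Socs5 at 2.33-fold. Lrig1 also had a probe set with a difference of 0, while both of Errfi1 were past 2-fold. Thus Egfr and its inhibitors Errfi1 and Lrig1 were all lower by their brightest probe sets.

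Of 14 expressed genes known as targets of ERK signalling 4 were lower by 2-fold or more, 28.6% beside 11.9% of all expressed genes, and none was higher by 2-fold or more. The transcription factor genes Fosl1 and Egr1 were 5.72-fold and 4.53-fold lower, the phosphatase gene Dusp4 4.67-fold and Phlda1 3.67-fold. Of the 14, 10 were below 0, and the list median was -0.42, against 0.10 for all expressed genes, or -1.02 relative to the pluripotency median. Dusp6 was at -0.37, Spry2 at -0.52 and Etv5 at 0.59, which is below 0 relative to the pluripotency median.

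Marker genes of other cell types differed in sign from list to list. All marker counts below stand beside 11.9% of all expressed genes lower by 2-fold or more and 5.09% higher by 2-fold or more. All 25 expressed fibroblast markers were below 0 and 23 were lower by 2-fold or more, with a median of -1.91 and a range of -2.92 to -0.51. Their summed linear level was 69099 on the array labelled Mof null and 193059 on the array labelled wild type, and none of them was below the filter on both arrays. Of these 25 markers, 4 had a lower difference than Axl and 4 a lower one than Pdgfrb, 9 than Ddr2, 13 than Egfr, 17 than Met and 23 than Pdgfra. So 5 of the receptors lay amid the fibroblast markers, at -0.34 to 0.14 from their median, and Pdgfra lay 1.01 above it. This position was not particular to fibroblast markers, since these receptors also lay within the range of the macrophage markers, -2.77 to -0.13.

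Of 16 expressed macrophage markers 14 were lower by 2-fold or more and all were below 0, with a median of -2.10, and Aif1 and Cx3cr1 were below the filter. Of the 14, Ptprc and Itgam were above the filter on the array labelled wild type alone, and Csf1r is also counted above among the other receptor tyrosine kinases. The 16 had a summed level of 6438 on the array labelled Mof null and 23626 on the array labelled wild type. Smooth muscle and neural crest genes had 4 of 8 expressed members lower by 2-fold or more and none higher by 2-fold or more, with Actg2, Myh11 and Sox10 above the filter on the array labelled wild type alone. Over the 5 above the filter on both arrays, 2 were lower by 2-fold or more. The 4 lower genes were the muscle genes Actg2, Cnn1, Myh11 and Des. The list also holds genes known from pericytes. Of these, Rgs5 and Kcnj8 were below the filter on both arrays, and Cspg4 was at -0.53, with another probe set at -1.68. The neural crest genes Sox10, Foxd3 and Mitf were at -0.92, 0.22 and 0.22, and another Sox10 probe set was at -0.019. Foxd3 and Mitf were below 0 relative to the pluripotency median. The 8 had a summed level of 1197 on the array labelled Mof null and 2919 on the array labelled wild type. The part of these cell types in the receptor differences was not tested.

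Of the receptors known from epithelia, Erbb2 and Erbb3 were above 0 as deposited but under 2-fold, while Met was at -1.77 and Ddr1 at -0.85. The epithelial markers were mostly higher. Of 20 expressed, 9 were higher by 2-fold or more and 1 lower by 2-fold or more, with a median of 0.91 and a summed level of 18471 on the array labelled Mof null and 9915 on the array labelled wild type. Of the 9, Prss8, Tjp3 and Esrp1 were above the filter on the array labelled Mof null alone. Relative to the pluripotency median most of the 9 were under 2-fold. The E-cadherin gene Cdh1 was at 0.87, Epcam at 1.49 and the keratin gene Krt8 at 0.084. The other listed keratins lay below 0, Krt7 at -1.85, Krt18 at -0.35 and Krt19 at -0.26. Krt8 was below 0 after centring on the median gene, which lowers every difference by 0.10.

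Of 17 expressed endoderm markers 11 were higher by 2-fold or more and none lower by 2-fold or more, with a median of 1.08 and a summed level of 38541 on the array labelled Mof null and 28981 on the array labelled wild type. Of the 11, Apoa1 and Hnf4a were above the filter on the array labelled Mof null alone. Relative to the pluripotency median most of the 11 were under 2-fold. The transcription factor genes Sox17, Gata4 and Gata6 were at 1.43, 1.32 and 0.13, the last below 0 relative to the pluripotency median. Of the 17, 3 were below 0, namely Col4a2 at -0.53, Col4a1 at -0.30 and Lamb1 at -0.20. The other 14 were above 0, up to 3.11. Pdgfra, which primitive endoderm carries, was at -0.90, on the other side of 0 from most of this list.

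Of the cell types that carry Kit, germ cells and mast cells shared a list, and blood progenitors had none. The melanocyte genes Tyr and Dct, listed with the neural crest genes, were below the filter on both arrays. Tyr had 4.07 on the array labelled Mof null and 3.92 on the array labelled wild type, and Dct 4.73 and 4.58 in the same order. The 4 mast cell genes Cpa3, Mcpt4, Tpsb2 and Fcer1a were all below the filter on both arrays, between 4.01 and 4.91 on the array labelled Mof null and between 3.78 and 4.56 on the array labelled wild type. All 8 germ cell genes were expressed and above 0, 4 of them higher by 2-fold or more, with a median of 1.09 and a summed level of 10018 on the array labelled Mof null and 5506 on the array labelled wild type. Of the 8, Prdm1 was above the filter on the array labelled Mof null alone, and Dppa3 and Prdm14 are also counted among the pluripotency genes. Relative to the pluripotency median, of the 4 only Mael stayed past 2-fold. Dazl and Ddx4, RNA-binding proteins of germ cells, were at 0.60 and 0.66 and Mael, a piRNA pathway gene, at 1.79. Of 4 expressed endothelial genes 2 were higher by 2-fold or more, though under 2-fold relative to the pluripotency median, while Cdh5 and 5 others were below the filter. All 25 pluripotency genes were above 0, with a median of 0.60, and Kit exceeded that median by 0.56. The part of these cell types in the Kit difference was not tested.

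**Figure D4:**
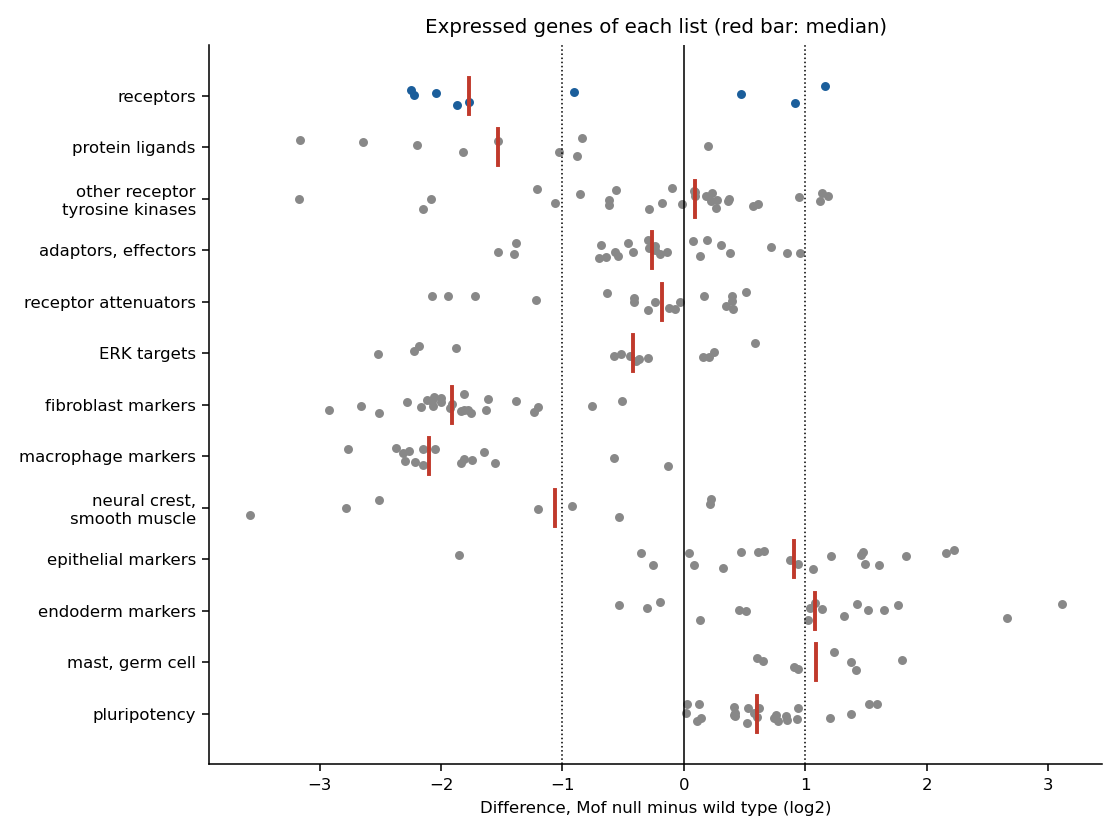
Difference between the array labelled Mof null and the array labelled wild type (log2, horizontal axis) for the expressed genes of each list, with 1 point per gene, the 9 receptors in blue, red bars at medians and dotted lines at 2-fold. Vertical scatter within a row carries no value. The receptors split between the range of the fibroblast markers (-2.92 to -0.51) and that of the pluripotency genes (0.018 to 1.60), while the median of other receptor tyrosine kinases is at 0.088 and lies below 0 relative to the pluripotency median. The receptors below 0 also lie within the range of the macrophage markers (-2.77 to -0.13). Those above 0 also lie within the ranges of the epithelial markers (-1.85 to 2.23) and the endoderm markers (-0.53 to 3.11).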

How the data were processed

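The authors deposited 1 table of log2 values for 45101 probe sets on 2 arrays. They come from RMA run through affy in R 2.10.0, per the submitters' processing notes, and the log2 scale was read from their range. RMA makes arrays alike in distribution.

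Of the probe sets, 34945 name 1 gene with 1 Entrez ID in the platform annotation and were used, 932 name several genes, and 9211 are not listed. All 9 receptors matched RefSeq GRCm38.p6 by Entrez ID. Gene value, level filter and size rule are as given above, and no model was fitted. The counting was tested on simulated data. The precision is limited by 1 array per genotype. The members and all gene lists were chosen with earlier results of these data known, and list genes without a probe set of their own are not analysed here. Named are all members, every expressed protein ligand, at most 6 genes past 2-fold of each list and the first markers. Actg2, Aif1, Apoa1, Capza2, Cav1, Cnn1, Col2a1, Col4a1, Col4a2, Cpa3, Cspg4, Cx3cr1, Dct, Ddr1, Des, Dppa3, Dusp6, Erbb4, Esrp1, Etv5, Fcer1a, Foxd3, Hgf, Hnf4a, Itgam, Kcnj8, Kdr, Krt7, Krt18, Krt19, Lamb1, Mcpt4, Mertk, Mitf, Mst1r, Myh11, Prdm1, Prdm14, Prss8, Ptprc, Rgs5, Sox10, Spry2, Tjp3, Tpsb2 and Tyr were chosen after their values were seen. Alternatives were the mean of all probe sets, leaving out suffixes _s_at and _x_at, no level filter, percentile 75, centring, a lowess correction (span 0.3), quantile normalization, the pluripotency median, and sizes of 1.5-fold and 4-fold. Python 3.11.15, numpy 2.4.6, pandas 2.3.3, statsmodels 0.14.6 and matplotlib 3.10.9 were used.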

Additional observations from a re-analysis of the deposited data

How the results depend on the processing

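No paired analysis was possible because there was 1 array per genotype, and leaving out an array was not possible. The 5 receptors lower by 2-fold or more became 3 with the mean of all probe sets, where Egfr and Met were under 2-fold, and 3 at 4-fold. They were 5 or 6 under every other alternative. The 1 receptor higher by 2-fold or more became 0 relative to the pluripotency median, 0 at 4-fold and 2 at 1.5-fold, and stayed 1 under the others. Erbb2 turned to -0.13 relative to the pluripotency median, the only sign change of a receptor, and it has no value at percentile 75. That scaling left 2917 genes lower by 2-fold or more and 92 higher, so that 3.06% of those past 2-fold were higher, against 29.95% as deposited. Across alternatives Axl ranged from -2.85 to -1.15, Pdgfrb from -2.82 to -1.82, Pdgfra from -1.50 to -0.57, Kit from 0.56 to 1.37 and Erbb3 from 0.32 to 0.96. Of the 11 medians of ligand, receptor and pathway lists, the pluripotency scaling moved 11 by more than the SD between probe sets (0.33), percentile 75 moved 5, no filter 4 and the mean of probe sets 3. The signs of the medians of the EGF receptor family ligands and of the other receptors named above depend on these settings. Differences of probe sets near the floor, as for Met on the array labelled Mof null, are limited by signal over background.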
